A study of Mus musculus with 4 samples.

Results

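Npy encodes neuropeptide Y, and Npy1r and Npy2r encode receptors that bind it. These 3 genes of the 32285 measured are described here across the cells of TNF+ and TNF- synovium and lung. Npy was chosen on its UMI counts in synovial macrophages of these same libraries, because no UMI was found in TNF- cells and many were found in TNF+ cells, so that contrast is given as a description. The receptors were chosen by their relation to Npy and not by their own counts.

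Neuropeptide Y is a short amidated peptide of sympathetic nerve endings, brain and adrenal medulla, where it is released together with noradrenaline. It is made as a precursor that prohormone convertases cut and that carboxypeptidases and an amidating enzyme then finish. It acts on G protein-coupled receptors, of which Y1 (Npy1r) is known for constriction of blood vessels and is carried by vascular smooth muscle, and Y2 (Npy2r) is best known as a presynaptic receptor of nerve endings.

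TNF+ mice carried 1 copy of a human TNF transgene and develop inflammatory-erosive arthritis and pulmonary hypertension, and TNF- mice were their wild type littermates. All were C57BL/6 females aged 4 months, and neither genotype carried a further allele or treatment in these libraries. Tissue was pooled by genotype, from 3 to 5 mice for lung and from 5 to 10 for synovium, digested with enzymes, sorted for viable cells and captured for droplet-based single-cell RNA-sequencing. Each of the 4 groups was 1 library, so no test between genotypes could be made. Intervals in brackets are exact 95% intervals that cover counting error only, not the spread between mice or libraries. A UMI is a molecular identifier that marks 1 captured RNA molecule, and CPM is the number of UMIs of a gene divided by all UMIs of the cells named, times 1000000. The human transgene is not in the mouse reference and was not measured.

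After the filter of 200 to 5000 genes and at most 20% mitochondrial UMIs, 6200 TNF- and 3152 TNF+ synovial cells and 6998 TNF- and 9174 TNF+ lung cells remained. The median depth of a cell lay between 7137 and 12492 UMIs in the 4 libraries. Pairs of libraries shared between 5 and 21 cell barcodes, and only 2 Npy UMIs, both in TNF+ synovium, lay in a shared barcode. The synovial class called macrophage or monocyte is referred to below as macrophages. In TNF- and in TNF+ synovium it had 23 of its 24 markers at least 2-fold above the other cells. The class was named by these same markers, so the count describes it and is no separate check of the label.

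In the mouse genome (GRCm38, GENCODE vM21), Npy lies on chromosome 6 from 49822710 to 49829507 on the plus strand, with 4 exons in 1 transcript. Npy1r lies on chromosome 8 from 66697192 to 66706792 on the plus strand. Npy2r lies on chromosome 3 from 82538383 to 82548084 on the minus strand. The 250 bases before the start of Npy are shown because they are the stretch next to the start site of the gene that differed between the genotypes. They were taken from RefSeq (GRCm38.p6, chr6:49822460-49822709, plus strand), and the capitals mark a GC box.
Npy promoter: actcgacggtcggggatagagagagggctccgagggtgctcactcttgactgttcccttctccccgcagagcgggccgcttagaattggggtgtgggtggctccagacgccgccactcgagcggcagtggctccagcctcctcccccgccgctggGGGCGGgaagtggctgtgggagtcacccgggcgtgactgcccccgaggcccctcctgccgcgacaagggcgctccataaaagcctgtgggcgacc
Both strands were searched for 6 motifs. The GC box GGGCGG was found 1 time, 95 bases before the start, and 32.7% of 32817 promoter windows of the same length held it. CCAAT was found 1 time on the minus strand, with 33.8% of windows holding it. TATAAA, the cAMP response element TGACGTCA, the AP-1 site TGANTCA and the NF-kB site were not among these letters, and 12.4%, 1.55%, 6.75% and 3.90% of windows held them. The stretch was 69.2% G and C, against a median of 52.4% over the windows. No measurement of protein binding was part of these data.

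Npy, the ligand, was found almost only in TNF+ synovium. The filtered cells held 19 Npy UMIs in 7 cells of TNF- synovium, 418 in 104 cells of TNF+ synovium, 3 in 2 cells of TNF- lung and 4 in 2 cells of TNF+ lung. In CPM these were 0.249 (0.150 to 0.389), 12.6 (11.5 to 13.9), 0.0558 (0.0115 to 0.163) and 0.0474 (0.0129 to 0.121). TNF+ synovium was the 1 library of the 4 with a level above 1 CPM, and the other 3 lay far below it.

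Macrophages held most of the Npy in TNF+ synovium. They carried 385 Npy UMIs in 89 of 992 cells, or 8.97% (7.27 to 10.9), at 26.9 CPM (24.2 to 29.7), which was 92.1% (89.1 to 94.5) of the Npy UMIs of that library. In TNF- synovium 0 of 220 macrophages had an Npy UMI, which allows a share of up to 1.36%. Against a floor of 3 UMIs in the TNF- cells, the TNF+ level was higher by at least 4.67 on the log2 scale, a value that follows from how the gene was chosen. Across the 11614 genes with at least 20 UMIs over both groups of macrophages, 8.61% were 2-fold or more higher in TNF+ and 19.4% were 2-fold or more lower, with a median log2 ratio of -0.22.

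**Figure D1:**
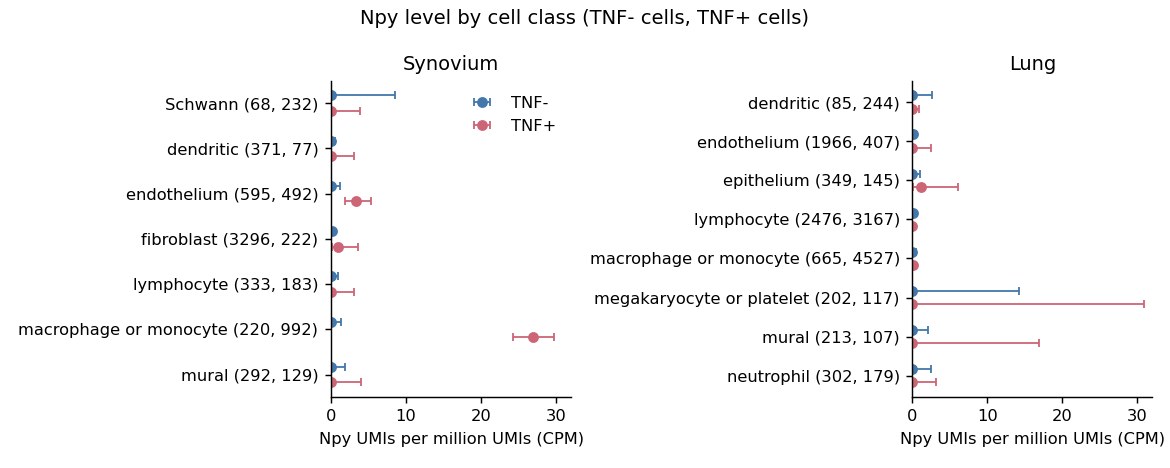
Npy level on the x axis, in CPM, for each named cell class with at least 50 cells in both libraries, in synovium (left) and lung (right). Points are single libraries with exact 95% Poisson intervals of counting error, and the numbers after each class are its TNF- and TNF+ cells. TNF+ synovial macrophages stand at 26.9 CPM and every other class drawn lies below 4 CPM. Lymphatic endothelium (66.2 CPM in TNF+ synovium) is a cluster inside the endothelium class, and osteoclast-like cells (9.39 CPM) are not drawn. The wide intervals are those of classes with few UMIs in all.

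Other immune cells of the same library gave the background. In TNF+ synovium, 0 of 77 dendritic cells had an Npy UMI at a median depth of 15300 UMIs, against a median of 14202 in macrophages, and 0 of 183 lymphocytes had one at a median depth of 5936. A share of up to 3.90% in the dendritic cells is allowed by that count. The lymphocytes were shallower than the macrophages, and of the shallowest 248 macrophages, with 618 to 9698 UMIs, only 2 (0.806%) had an Npy UMI, so at that depth the classes were not separated. The part of RNA free in the suspension was not tested. When each cell was thinned to 1000 UMIs, 13 of 990 TNF+ macrophages (1.31%, 0.701 to 2.24) had an Npy UMI. Of 219 TNF- macrophages 0 had one (0 to 1.67), so the intervals overlapped and the genotypes were not separated at that depth.

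Within the macrophages, the Npy UMIs all lay in 1 of 3 clusters. That cluster was led by Cxcl3, Cxcl2, Trem2 and Spp1, and it held 735 TNF+ cells and only 9 TNF- cells. It had 89 cells with Npy and 31.2 CPM (28.2 to 34.5) in TNF+ synovium. The cluster led by Cd300e and Treml4, genes of nonclassical monocytes, held 0 Npy UMIs in 223 TNF+ and 142 TNF- cells. The cluster led by Ccl12, Ccl24, Cd209f and Lyve1, genes of resident macrophages, held 0 in 34 TNF+ and 69 TNF- cells. With 9 TNF- cells, 0 cells with Npy in the first cluster allows a share of up to 33.3%. The absence of Npy from TNF- macrophages therefore cannot be told apart from the near absence of that cluster from TNF- synovium. The cluster is almost wholly of 1 library, so it may also reflect that library.

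Clustering the macrophages alone ranked the Npy levels further. The subcluster led by Csf3, Ereg, Ptges and Spp1 had no name from the markers and is called the leading subcluster below. It had 271 Npy UMIs in 65 of 300 TNF+ cells, 21.7% (17.1 to 26.8), and 49.0 CPM (43.4 to 55.2). The subcluster led by H2-M2, Orm1 and Lyz1 followed with 68 UMIs in 22 of 229 cells and 17.6 CPM (13.7 to 22.3).

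The third was a classical monocyte-like subcluster with Mmp8, Chil3 and Thbs1 among its leading genes. It had 46 UMIs in 2 of 225 cells, and 45 of these UMIs came from 1 cell, so its level of 14.6 CPM (10.7 to 19.5) rests on that cell. By share of cells it stood at 0.889%, far below the 9.61% of the subcluster led by H2-M2, while by CPM the intervals of these neighbours overlapped. A nonclassical monocyte-like subcluster (194 cells) and the subcluster led by Retnla and Lyve1 (40 cells) had 0 Npy UMIs.

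**Figure D2:**
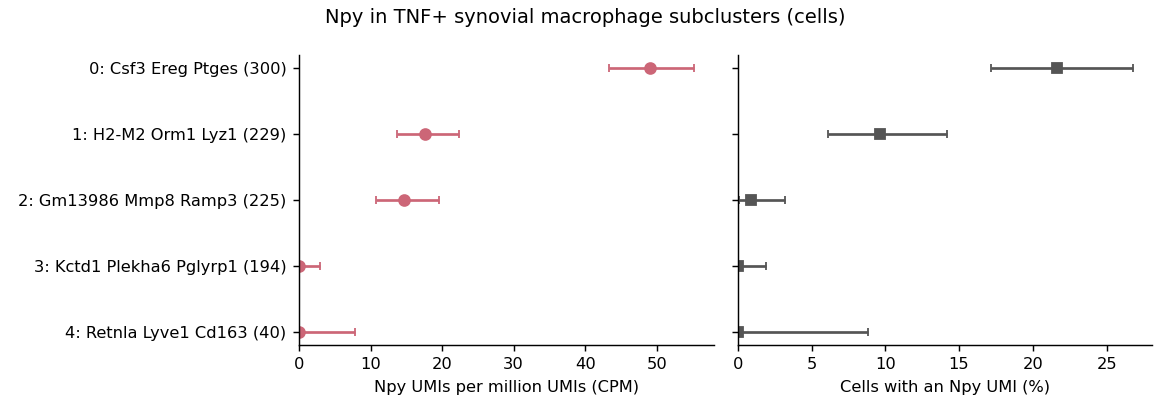
Npy in the subclusters of TNF+ synovial macrophages with at least 20 cells, named by their 3 leading genes, with the number of TNF+ cells in brackets. The left panel gives CPM with exact 95% Poisson intervals, and the right panel gives the percentage of cells with an Npy UMI with exact 95% binomial intervals. The leading subcluster stands highest in both panels, at 49.0 CPM and 21.7%. The third subcluster stands at 14.6 CPM in the left panel but at 0.889% of cells in the right one.

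Single cells differed widely. Of the 89 macrophages with Npy, 39 had 1 UMI, 14 had 2, 25 had 3 to 9 and 11 had at least 10. The highest cell had 45 Npy UMIs and the next had 22, and the 10 highest cells held 47.8% of the macrophage Npy UMIs. If the 385 UMIs had been spread over all 992 cells in proportion to depth, 308 cells would have carried at least 1, against the 89 seen. The Npy counts were thus gathered in few cells.

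Cells with Npy were deeper than cells without. Their median was 21314 UMIs against 13587, while the median mitochondrial share was 1.74% against 1.80%. By quartile of depth, from the shallowest to the deepest 248 cells, the Npy level was 1.38 CPM (0.167 to 4.98), 3.63 (1.81 to 6.49), 26.4 (21.6 to 31.9) and 45.6 (40.3 to 51.5). Since CPM already divides by depth, the level itself was higher in deeper cells.

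Depth went with the level inside the leading subcluster too. Its 150 shallower cells had 17.9 CPM (12.6 to 24.6) and its 150 deeper cells had 67.7 CPM (59.3 to 77.0). The part of cell size and of doublets in this was not tested.

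**Figure D3:**
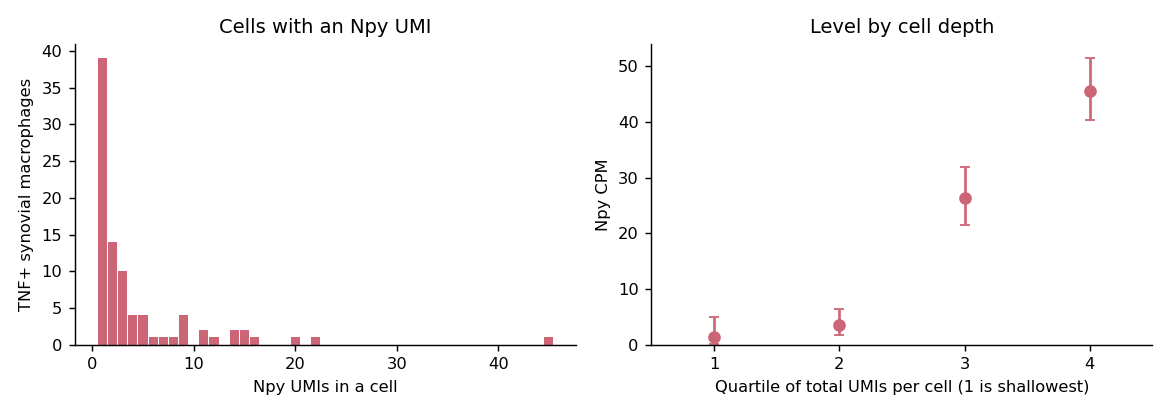
Left, the number of TNF+ synovial macrophages (y axis) by the number of Npy UMIs in the cell (x axis), with the 903 cells without Npy left out. Right, Npy CPM with exact 95% Poisson intervals (y axis) by quartile of total UMIs per cell (x axis, 1 is the shallowest). The left panel falls from 39 cells with 1 UMI to a single cell with 45, and the right panel rises from 1.38 to 45.6 CPM.

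Other cells of TNF+ synovium held the remaining Npy UMIs. Osteoclast-like cells, led by Acp5, Mmp9 and Ctsk, had 9 UMIs in 6 of 131 cells, 9.39 CPM (4.30 to 17.8). Lymphatic endothelium, the cluster led by Ccl21a, Mmrn1 and Lyve1, had 15 UMIs in 2 of 26 cells, 66.2 CPM (37.0 to 109). This level was above the 26.9 CPM of macrophages but rests on 2 cells. Those 2 cells had 0 UMIs of Csf1r, Cd68 and C1qa and 3 of Lyz2, so macrophage markers were at or near 0 in them. Epithelium led by Krt14 had 5 UMIs in 3 cells, and fibroblasts had 2 UMIs in 2 of 222 cells.

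The upper limit of 5000 genes removed cells that carry Npy. In TNF+ synovium 31 cells above it held 198 Npy UMIs, against 418 in the cells kept. Without any filter on cells, lymphatic endothelium had 105 Npy UMIs in 7 of 54 TNF+ cells (112 CPM), of which 90 lay in 5 cells above the limit, and those 7 cells had 0 Csf1r UMIs. Osteoclast-like cells then had 57 Npy UMIs in 18 of 94 cells (15.9 CPM). Macrophages had 438 in 100 of 1012 cells (28.7 CPM), so their share of the Npy UMIs of TNF+ synovium was 70.5% in place of 92.1%.

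In TNF- synovium the Npy UMIs of the filtered cells lay outside the myeloid classes. Muscle satellite cells, the stem cells of skeletal muscle, had 11 UMIs in 4 of 367 cells, 2.49 CPM (1.24 to 4.45), and fibroblasts had 7 in 2 of 3296 cells. With no filter, 1 cell in a Schwann cell cluster held 27 Npy UMIs and the satellite cells held 30 in 5 of 409 cells. A further 8 lay in 2 cells of an unnamed cluster. Its leading genes include the myeloid genes Retnla, Dcstamp, Ccl22 and Cd209a and also the muscle satellite gene Myod1. These 2 cells held 148 UMIs of Lyz2 and 1 of Csf1r, and whether they are doublets was not tested. That cluster had 41 TNF- cells, of which 32 were above the gene limit. The TNF- cells named macrophages had 0 of 234 with Npy.

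Lung macrophages, which the choice of Npy did not use, had next to none. TNF- lung macrophages had 0 Npy UMIs in 665 cells, so up to 0.451% is allowed, and TNF+ lung macrophages had 3 UMIs in 1 of 4527 cells, 0.0717 CPM (0.0148 to 0.210). Above the gene limit, 5 TNF+ lung cells held 18 Npy UMIs. They lay in a macrophage cluster led by Cxcl3, Spp1 and Egfem1, of which the limit removed 705 of 782 cells, and with those cells its level was 0.60 CPM. This was far below the 32.2 CPM of the TNF+ synovial macrophage cluster led by Ms4a7 and Clec4e, also without a filter. By whole class without a filter, TNF+ macrophages had 0.326 CPM in lung and 28.7 CPM in synovium.

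Markers of sympathetic neurons were searched for in the same macrophages. Th and Dbh, enzymes of noradrenaline synthesis, had 0 UMIs in TNF- and in TNF+ synovial macrophages. The 15 listed markers summed to 4.74 CPM in TNF+ and 9.17 CPM in TNF- macrophages, with Tubb3 the highest in TNF+ cells at 43 UMIs. In the whole of TNF+ synovium the list summed to 53.1 CPM, mostly from Stmn2 (1418 UMIs), Tubb3 (115) and Prph (81), while Th had 0 UMIs and Dbh had 2. A list of 19 other neuropeptides summed to 11.4 CPM in TNF+ and 8.82 CPM in TNF- macrophages, led in TNF+ cells by Adm (58 UMIs) and Gal (34 UMIs).

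The TNF+ macrophages with an Npy UMI were then set beside those without, as a description of cells of 1 library. Over the 10954 genes measured, 2.39% were 2-fold or more higher in the cells with Npy and 9.77% were 2-fold or more lower, with a median log2 ratio of -0.10. Among genes with at least 200 UMIs, the largest ratios belonged to Ctsk, Folr2, Csf3, Cxcl1, Ereg, Tnfsf9, Clmp, Spp1, Sema3c and Il1a. Cxcl1, a neutrophil chemokine, was at 2668 CPM with Npy and 761 CPM without (log2 ratio 1.81, 1.76 to 1.86) and was found in 66 of the 89 cells. Spp1, the gene of osteopontin, was at 3338 CPM against 1087 CPM (1.62, 1.58 to 1.66).

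Some of these ratios rested on 1 cell. A single cell held 79.8% of the Folr2 UMIs of the cells with Npy, and without it the Folr2 ratio was -0.43 in place of 1.88. For Ctsk, the gene of the bone collagen protease cathepsin K, 1 cell held 57.4%, and the ratio went from 2.43 to 1.20. Csf3 (1.84, and 1.5 without its highest cell) and Ereg (1.72, and 1.25) moved less. These encode the neutrophil growth factor G-CSF and the EGF receptor ligand epiregulin.

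By gene list, lower values were found mostly for resident macrophage, monocyte and antigen presentation genes. Of the 9 resident macrophage genes measured, 7 were 2-fold or more lower in cells with Npy, among them the mannose receptor gene Mrc1 (19.7 against 96.1 CPM, -2.29), and Folr2 was the 1 higher. Of 10 monocyte genes, 8 were lower, such as Ly6c2 (-1.55) and Ccr2 (-1.72). Of 7 MHC class II genes, 6 were lower, such as H2-Aa (578 against 1822 CPM, -1.66) and Cd74 (1655 against 4689 CPM, -1.50). All 3 shares were above the 9.77% of all genes. The cells without Npy include every cell of the nonclassical monocyte and resident macrophage clusters, so these lists also compare clusters.

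Other lists moved less. Of 8 proliferation genes, 4 were 2-fold or more lower, and of 12 inflammatory cytokine genes, 2 (Cxcl1 and Il1a) were higher and none lower. Mouse Tnf was at 170 against 93.8 CPM (0.86, 0.68 to 1.04), and Il1b at 1512 against 1531 CPM (-0.02). Of 12 Trem2 macrophage genes, Spp1 alone was 2-fold higher, and Trem2 itself stood at 490 against 311 CPM (0.66, 0.55 to 0.76). Of 9 osteoclast genes measured, Ctsk was higher and 3 were lower.

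The cells without Npy include nearly all cells of the monocyte-like subclusters and all of the subcluster led by Retnla and Lyve1. The same ratios were therefore taken within the leading subcluster, between 65 cells with and 235 without Npy. There 1.64% of 8789 genes were 2-fold or more higher and 4.49% lower. MHC class II genes were lower again in 4 of 6 measured, such as H2-Aa (46.6 against 177 CPM, -1.93) and Cd74 (153 against 554 CPM, -1.86). Monocyte genes were lower in 3 of 8 and proliferation genes in 4 of 6. Of 4 resident macrophage genes measured there, 2 were lower and 1 was higher. Cxcl1 (3352 against 1582 CPM, 1.08) was the 1 inflammatory gene past 2-fold of 11, and Spp1 stood at 0.93. Median depth also differed between these cells, at 21314 UMIs with Npy and 17355 without, and its part in the ratios was not tested.

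**Figure D4:**
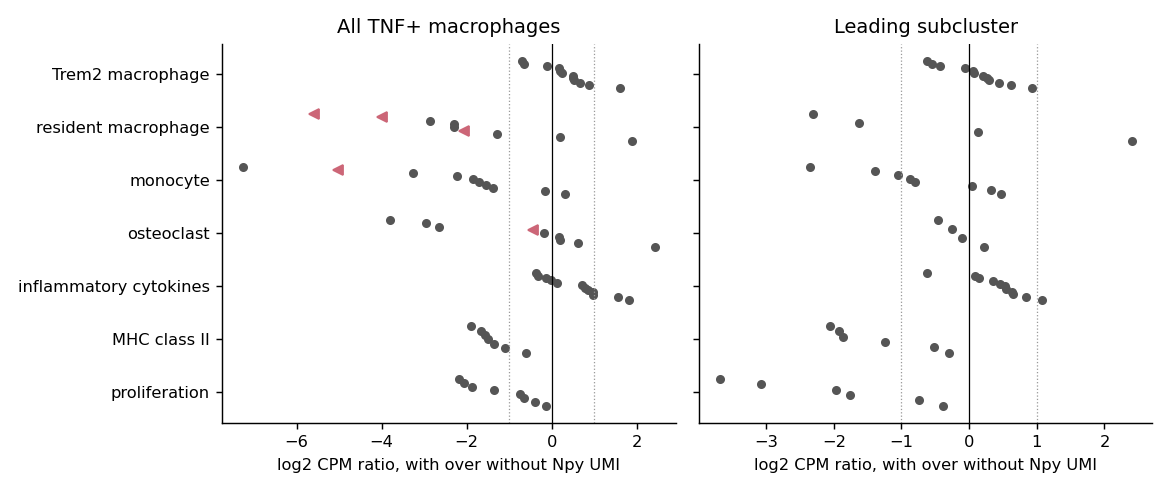
Each point is a listed gene with at least 20 UMIs, and the x axis is its log2 ratio of CPM in cells with an Npy UMI over cells without, in all TNF+ synovial macrophages (left) and in the leading subcluster (right). Dotted lines mark 2-fold, and triangles are genes with 0 UMIs in the cells with Npy, drawn at the upper bound that a floor of 3 UMIs gives. MHC class II genes all lie left of 0 in both panels, and 1 resident macrophage gene far to the right is Folr2, which rests on 1 cell.

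The genes whose pattern was most like that of Npy were ranked over 55 profiles of cell classes and macrophage subclusters in the 4 libraries, by Pearson correlation of log2(CPM + 1) among 7626 genes. The first was Raet1d, which encodes a ligand of the NKG2D receptor (r = 0.84), followed by Ereg (0.73), Mif (0.68), Pdpn (0.67), Gde1 (0.67), Gnat3 (0.66), Arg1 (0.65), Spryd7 (0.64), Gm48324 (0.64) and Txn1 (0.64). Npy is at 0 in most profiles, and profiles of 1 library share its depth. In the leading subcluster Raet1d was at 11.6 CPM, next to a highest value of 8.35 CPM in any other profile, and Ereg was at 49.4 CPM, next to 10.2.

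Other members of the ligand and receptor families were near or at 0. Peptide YY (Pyy) had 3 UMIs in TNF- and 2 in TNF+ synovium, and pancreatic polypeptide (Ppy) had 0 and 4. Npy4r had 16 UMIs in TNF- and 1 in TNF+ synovium, Npy5r had 1 and 0, and Npy6r had 0 in all 4 libraries.

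Npy1r, the Y1 receptor gene, was found mostly in vessel wall cells and fibroblasts and was at or near 0 in synovial macrophages. Its filtered UMIs were 919 in 399 cells of TNF- synovium, 253 in 124 cells of TNF+ synovium, 167 in 71 cells of TNF- lung and 58 in 34 cells of TNF+ lung. TNF+ synovial macrophages, which held most Npy UMIs, had 0 Npy1r UMIs in 992 cells, so at most 0.302% of them could carry one at this count, and TNF- macrophages had 1. Mural cells, the pericytes and smooth muscle cells of vessel walls, held 52.1% of the Npy1r UMIs of TNF- and 50.2% of those of TNF+ synovium. Cells named fibroblasts, far more numerous in TNF- synovium, held 45.5% and 8.30%, and endothelium held 0.435% and 24.9%. An unnamed cluster led by Ibsp and Mmp13 held 13.8% of the Npy1r UMIs of TNF+ synovium. It had 10 fibroblast markers and is not counted among the fibroblasts.

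In mural cells Npy1r was lower in TNF+ synovium. It was at 249.3 CPM (227 to 273) in TNF- cells, in 164 of 292 cells, and at 140 CPM (117 to 166) in TNF+ cells, in 55 of 129 cells. The log2 ratio was -0.83 (-1.13 to -0.55), short of 2-fold. Of 9501 genes measured in mural cells, 20.3% were 2-fold or more lower and 5.21% higher, and the median of all genes was -0.29, so against that median Npy1r was -0.54. In the cluster led by Abcc9, Kcnj8 and Rgs5, genes of pericytes, the ratio was -0.51 (-1.06 to -0.0015), and in the cluster led by Myh11 and Acta2, genes of smooth muscle, it was -0.95 (-1.33 to -0.57). The TNF- class was 235 and 57 cells of these clusters, and the TNF+ class 41 and 88.

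Thinning gave less separation. After thinning to 1000 UMIs, 14.0% of TNF- and 12.5% of TNF+ cells of the smooth muscle cluster had an Npy1r UMI, with overlapping intervals. In the pericyte cluster it was 20.3% against 25.7%, which goes against the order of the CPM, so no order is read from that share.

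Endothelium differed in the other direction. It had 4 Npy1r UMIs, all in 1 of 595 TNF- cells, and 63 UMIs in 29 of 492 TNF+ cells, or 1.29 against 13.003 CPM (log2 ratio 3.34, 1.91 to 5.26). Nearly all of these lay in the cluster led by Cytl1, Gkn3, Stmn2 and Sema3g that also carried Gja5, Gja4 and Bmx, genes of arterial endothelium. It had 60 UMIs in 27 of 203 TNF+ cells, 29.1 CPM (22.2 to 37.5), and 4 UMIs in 1 of 84 TNF- cells, 8.09 CPM. This cluster was 203 of the 492 TNF+ and 84 of the 595 TNF- endothelial cells, so makeup and level cannot be told apart in the class ratio. The ratio within the cluster was 1.85 (0.42 to 3.77), and since the TNF- value is that of 1 cell it is loosely fixed. TNF+ cells of the cluster were also deeper, with a median of 8825 against 5256 UMIs. After thinning 3 of 203 TNF+ and 0 of 84 TNF- cells had an Npy1r UMI, which is too few to order.

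Synovial fibroblasts did not separate the genotypes. Npy1r was at 8.37 CPM (7.59 to 9.22) in TNF- fibroblasts, in 227 of 3296 cells, and at 10.5 CPM (6.51 to 16.1) in TNF+ fibroblasts, in 12 of 222. The log2 ratio was 0.33, with an interval from -0.38 to 0.96. Of 15122 genes measured in fibroblasts, 7.86% were 2-fold or more higher and 14.7% lower. The unnamed cluster led by Ibsp and Mmp13 is not among these fibroblasts and held no TNF- cells. It had 35 Npy1r UMIs in 22 of 230 TNF+ cells, 9.20 CPM (6.41 to 12.8).

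Over the whole of synovium Npy1r was at 12.1 CPM (11.3 to 12.9) in TNF- and 7.66 CPM (6.74 to 8.66) in TNF+ cells (log2 ratio -0.66, -0.86 to -0.45). These libraries held 3296 and 222 cells named fibroblasts. The makeup of the cells and the level per cell cannot be told apart in that ratio. Of 19255 genes in whole synovium, 11.8% were 2-fold or more higher and 21.9% lower.

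**Figure D5:**
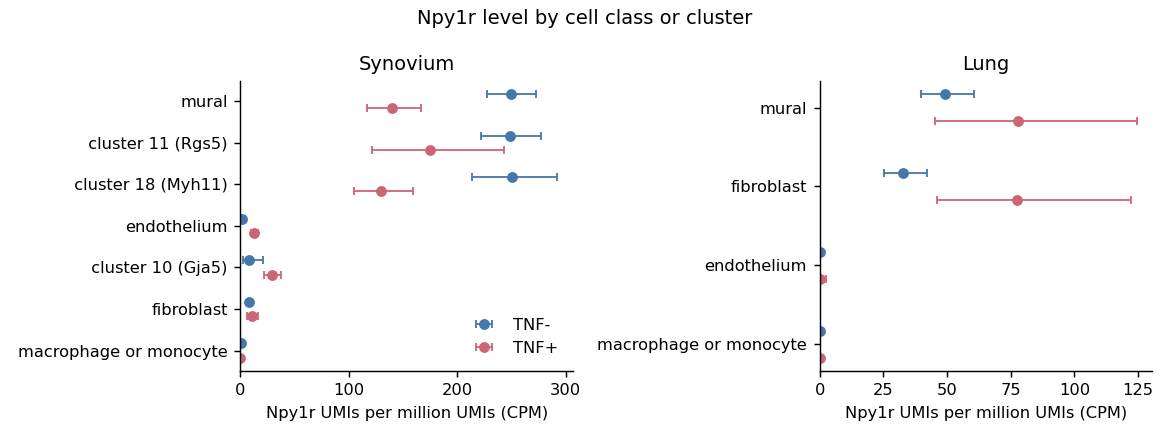
Npy1r level on the x axis, in CPM, by cell class or cluster in synovium (left) and lung (right), for TNF- and TNF+ libraries, with exact 95% Poisson intervals. The x axes of the panels differ. In synovium, mural cells stand at 249.3 CPM (TNF-) against 140 (TNF+), and both macrophage values are at or near 0.

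In lung, mural cells and fibroblasts again had the highest named levels of Npy1r. Mural cells had 90 UMIs in 28 of 213 TNF- cells, 49.3 CPM (39.6 to 60.6), and 17 UMIs in 6 of 107 TNF+ cells, 77.7 CPM (45.3 to 124), and these intervals overlapped. All of these UMIs lay in the cluster led by Actc1 and Acta2. Its level was 103 CPM in 118 TNF- cells and 90.2 CPM in 103 TNF+ cells, a log2 ratio of -0.20 (-1.04 to 0.56). The other mural cluster, led by Hhip and Aspn, held 95 TNF- and 4 TNF+ cells. Makeup and level therefore cannot be told apart in the lung mural class values. Fibroblasts had 32.8 CPM (25.1 to 42.1) in TNF- and 77.4 CPM (45.9 to 122) in TNF+ cells, a log2 ratio of 1.24 (0.39 to 2.02) from 148 and 23 cells. TNF+ lung mural cells were shallow, with a median of 646 UMIs against 8505. Macrophages had 9 UMIs in 9 of 4527 TNF+ cells, 0.215 CPM (0.0984 to 0.409), and 0 in 665 TNF- cells. Lung endothelium had 0 Npy1r UMIs in 1966 TNF- cells, which allows up to 0.153% of cells, and 0 in 407 TNF+ cells.

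Npy2r, the Y2 receptor gene, was found among filtered cells of TNF- synovium, with 26 UMIs in 13 of 6200 cells and 0 in the filtered cells of the other 3 libraries. Of these, 20 UMIs lay in 10 of 938 TNF- fibroblasts of the cluster led by Gdf10, C4b and Sfrp4, a level of 1.40 CPM. TNF+ synovium held 81 cells of that cluster, too few for such a level to be seen, so its absence there was not detectable as a difference at this depth. No macrophage of either synovial library had an Npy2r UMI.

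Genes that process and clear neuropeptide Y were set beside the members. In synovial macrophages 11 of 34 listed genes of the system had at least 20 UMIs over both libraries. Npy was higher and Dpp4, a peptidase that shortens the peptide, was lower (0.907 against 13.8 CPM, log2 ratio -3.92). The Dpp4 values rest on 13 UMIs in TNF+ and 39 in TNF- macrophages. The call of Npy follows from how it was chosen and is not set against other genes. No other measured gene of the system was 2-fold higher, against 8.61% of all genes. Dpp4 was the 1 gene lower, against 19.4% of all genes. Of 4 measured processing genes none passed 2-fold. Furin, a convertase of the secretory pathway, stood at 159 CPM in the TNF+ macrophages against 171 in the TNF- ones, and Pam, the amidating enzyme, at 35.2 and 20.1 CPM (0.81, 0.41 to 1.23). Pcsk1, Pcsk2 and all 9 dense-core granule genes were below 20 UMIs there. The cluster led by Cxcl3 made up 735 of the 992 TNF+ and 9 of the 220 TNF- macrophages. These macrophage ratios therefore also compare different clusters.

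In whole synovium, 4 of 8 peptidase genes were 2-fold or more lower in TNF+ cells and none higher, against 21.9% of all genes lower. Dpp4 went from 80.4 to 7.17 CPM (log2 ratio -3.49), Mme, the gene of neprilysin, from 82.9 to 20.5 CPM (-2.02), Fap from 154 to 34.5 CPM (-2.16) and Xpnpep2 from 7.40 to 0.605 CPM (-3.61). Fibroblasts held 88.0% of the Dpp4 UMIs and 96.4% of the Mme UMIs of TNF- synovium. TNF- synovium held 3296 cells named fibroblasts and TNF+ synovium 222, so makeup and level cannot be told apart in these whole-synovium ratios. Within fibroblasts the ratios were smaller, with Dpp4 at 108 and 63.6 CPM (-0.77) and Mme at 122 and 68.1 CPM (-0.84). There 3 of the 8 peptidases, among them Fap (-1.11), were 2-fold or more lower, against 14.7% of all genes. The other calls are loosely fixed, since Xpnpep2 had 8 UMIs in TNF+ fibroblasts and the third gene had 1. The tendon-like cluster led by Chad and Wif1 was 290 of the 3296 TNF- and 70 of the 222 TNF+ fibroblasts. Makeup and level therefore cannot be told apart within fibroblasts either. In mural cells Fap stood at 143 CPM in the TNF- and 19.8 in the TNF+ library (-2.85), and Pcsk1 at 85.4 and 145 CPM (0.77, 0.43 to 1.11). The TNF+ Fap value rests on 18 UMIs. The mural class was 235 pericyte-cluster and 57 smooth muscle-cluster cells in TNF-, and 41 and 88 in TNF+ synovium. Makeup and level therefore cannot be told apart in these mural ratios.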

How the data were processed

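Deposited were raw UMI counts for every gene in every called cell, which the authors made, per the labels, with Cell Ranger 7.0.1 on the mm10 build, in a version that counts intronic reads by default. Such counts cannot tell isoforms apart. No file assigns cells to types. The study's own limits on cells were applied (200 to 5000 genes, no more than 20% of UMIs mitochondrial), and doublets were not removed further. The libraries of a tissue were clustered together after scaling to 10000 UMIs per cell, with 2000 variable genes (without the genes of the Npy system), 30 principal components, 20 neighbours and Leiden resolution 0.8, and macrophages again at 0.6 (scanpy 1.11.5, leidenalg 0.10.2, scipy 1.17.1, Python 3.11.15). A name needed 5 markers (3 for a macrophage subcluster) at least 2-fold above the rest and present in 10% of cells. The osteoclast class was added after the data were seen. Counts were summed per class, with exact Poisson and Clopper-Pearson binomial intervals and a conditional binomial interval for ratios, which were checked on simulated data. A gene at 0 in a group was set to a floor of 3 UMIs, and a bound on the uninformative side of 0 was given no ratio. Genes with at least 20 UMIs over both groups were called at 2-fold.

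The genes, the lists and the rule for naming genes were chosen with earlier results of these data known. Named are the members, the listed genes of the Npy system with at least 20 UMIs, the 10 genes most like Npy, the 10 with the largest ratio between cells with and without Npy, and list members past 2-fold. Tnf, Il1b and Trem2 are named besides as the best known members of their lists. Alternatives were other filters, removal of the highest Scrublet scores, other resolutions, each library clustered by itself, equal weight per cell, median-of-ratios scaling and other count minimums. The removal of the cell with most Npy UMIs, and the alternatives for Npy1r in mural cells and endothelium, were added after seeing the data. The values of 1 listed gene are not reported here.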

Additional observations from a re-analysis of the deposited data

Results flagged for a closer look

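In synovium the Npy1r log2 ratio of TNF+ over TNF- took opposite signs in vessel cells. It was 1.85 in the arterial endothelial cluster, where the TNF- value is that of 1 cell, and -0.51 and -0.95 in the pericyte and smooth muscle clusters. With 1 library per genotype, the difference between the clusters was not tested.

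Cells above the limit of 5000 genes, which the comparisons left out, held 198 Npy UMIs in 31 cells of TNF+ synovium. In TNF- synovium such cells held 54 Npy UMIs in 4 cells. Whether these are large single cells or doublets was not tested.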

How the results depend on the processing

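With no filter on cells, the macrophage share of Npy UMIs in TNF+ synovium was 70.5%, the Npy level of TNF+ lung macrophages 0.326 CPM and the lower bound of the Npy log2 ratio in synovial macrophages 4.98. Then 5 genes of the Npy system passed 2-fold in macrophages, against 2. The Npy1r ratio was then -1.33 in mural cells and 1.49 in endothelium, the latter from only 5 UMIs. With the stricter filter of 500 to 4000 genes and 10% mitochondrial UMIs, the macrophage Npy level was 22.8 CPM, the share 99.2% and the bound 4.17. At resolution 1.6 the share was 88.3%. With each library clustered by itself the level was 30.04 CPM, the share 88.3%, the bound 4.88, the lung level 0.264 CPM and the mural Npy1r ratio -1.23.

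Equal weight per cell gave 19.1 CPM and a bound of 4.17. Median-of-ratios scaling gave a bound of 4.89 and a mural Npy1r ratio of -0.54. With minimums of 5 and 100 UMIs, 4 genes and 1 gene passed 2-fold. Without the cell of most Npy UMIs, the level was 23.7 CPM and the bound 4.49, and the leading subcluster held 79.7% of macrophage Npy UMIs. It held 55.1% at subclustering resolution 1.0. The other causes were not tested. The whole-synovium Npy1r ratio stayed within its interval under all 5 alternatives run for it, and no ratio listed here changed sign.

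No paired analysis was possible because each group is 1 library and no result comes from a test. No replicate was left out for the same reason. Depth limits the values of Npy2r, of Npy in the few TNF- macrophages and of Npy1r in TNF- arterial endothelium.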
